A study of Homo sapiens with 12 samples.

Results

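The neutrophil chemokine genes CXCL1, CXCL2, CXCL3, CXCL5, CXCL6 and CXCL8, the chemokine gene CCL20 and the cytokine gene IL6 were followed in head and neck squamous cell carcinoma cells treated with IFNα. The 8 genes were found by symbol among the 60099 genes of the deposited table, each in 1 row. RNA was sequenced from Cal27 and HN30, established tumor cell lines, left untreated (0 ng/ml) or treated with 20 or 200 ng/ml IFNα for 24 h. The 12 samples carried letters, with 2 replicates each: A and D were untreated, B and E received the low dose, and C and F the high dose. The letters A to C covered all 3 doses, as did D to F, so these are treated as the 2 lines and called the A-C and D-F sets. The labels do not say which set is which line, so no value is given to Cal27 or HN30 by name. Nothing in the labels says that replicates were separate cultures, so p-values measure only the spread between these samples, which may be technical. In the D-F set the untreated levels of CXCL1, CXCL2, CXCL8 and IL6 were below those of the A-C set, and CXCL1, CXCL8 and IL6 rose after either dose. In the A-C set only IL6 was called, at the high dose.

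CXCL1, CXCL2, CXCL3, CXCL5, CXCL6 and CXCL8 belong to the CXC chemokines with an ELR motif ahead of the first cysteines. They draw neutrophils through the receptor CXCR2, and CXCL6 and CXCL8 also act through CXCR1. CCL20 acts through CCR6 on dendritic cells and lymphocytes, and IL6 signals through IL6R and the shared chain IL6ST to STAT3. Squamous carcinoma cells are a known source of several of these proteins. Their genes are classic targets of NF-κB, which IL-1 and TNF activate, whereas type I interferon acts mainly on genes with an interferon-stimulated response element.

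The 6 CXC genes lie together on chromosome 4 of GRCh38. CXCL8 (73740506 to 73743716), CXCL6 (73836497 to 73849064) and CXCL1 (73869393 to 73871242) are on the forward strand. CXCL5 (73995642 to 73998779), CXCL3 (74036589 to 74038807) and CXCL2 (74097035 to 74099293) are on the reverse strand. CCL20 is on chromosome 2 (227813842 to 227817564) and IL6 on chromosome 7 (22725884 to 22732002), both on the forward strand.

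The upstream sequences show what the genes share. All 8 genes matched a RefSeq promoter entry on GRCh38.p14. The 250 bases before each RefSeq start were searched on both strands for 4 motifs written as letters. The RefSeq start can differ from the end of the gene span given above. For CXCL2, CXCL3, CXCL5, CXCL6 and IL6 the windows printed below lie inside that span. The NF-κB type motif GGNNTTTCC was found in 8 of 8 genes and in 5.48% of all 35116 promoter entries. The AP-1 motif TGANTCA was found only upstream of CXCL8 among the 8 genes, and in 6.57% of all entries. The C/EBP type motif TTNNGNAA was found upstream of CXCL2 and IL6, and in 33.2% of all entries. The interferon-stimulated response element, searched as GAAA repeated after any 2 bases, was in 0 of the 8 windows and in 3.02% of all entries. The first NF-κB type match of each gene is given 5′ to 3′ in the direction of the gene, with 10 bases on each side and the match in capitals.
CXCL8, chr4:73740468-73740496, forward strand: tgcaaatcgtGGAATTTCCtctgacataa
CXCL1, chr4:73869305-73869333, forward strand: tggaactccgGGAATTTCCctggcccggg
CXCL2, chr4:74099254-74099282, reverse strand: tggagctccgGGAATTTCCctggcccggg
CXCL3, chr4:74038749-74038777, reverse strand: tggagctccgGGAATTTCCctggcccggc
CXCL5, chr4:73998749-73998777, reverse strand: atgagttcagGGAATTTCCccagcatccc
CXCL6, chr4:73836579-73836607, forward strand: ctgagttcagGGAATTTCCccagcatccc
IL6, chr7:22727118-22727146, forward strand: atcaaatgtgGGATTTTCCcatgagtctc
CCL20, chr2:227813753-227813781, forward strand, motif on the opposite strand: tgatcaatggGGAAAACCCcatgtggcaa

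The 6 CXC genes carried the same 9 letters, while IL6 and CCL20 carried other versions of the motif. The windows of CXCL1 and CXCL2 were identical at 28 of 29 bases, as were those of CXCL5 and CXCL6. CXCL8 and CXCL1 shared 17 of 29. A second match, shown here because only CXCL1, CXCL2 and CXCL3 had one, began 53 bases before the RefSeq start of each.
CXCL1, chr4:73869330-73869358, forward strand: cgggggctccGGGCTTTCCagccccaacc
CXCL2, chr4:74099230-74099258, reverse strand: ccgggactccGGGCTTTCCagccccaacc
CXCL3, chr4:74038724-74038752, reverse strand: cggccgctccGGGCTTTCCagtctcaacc

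**Figure D1:**
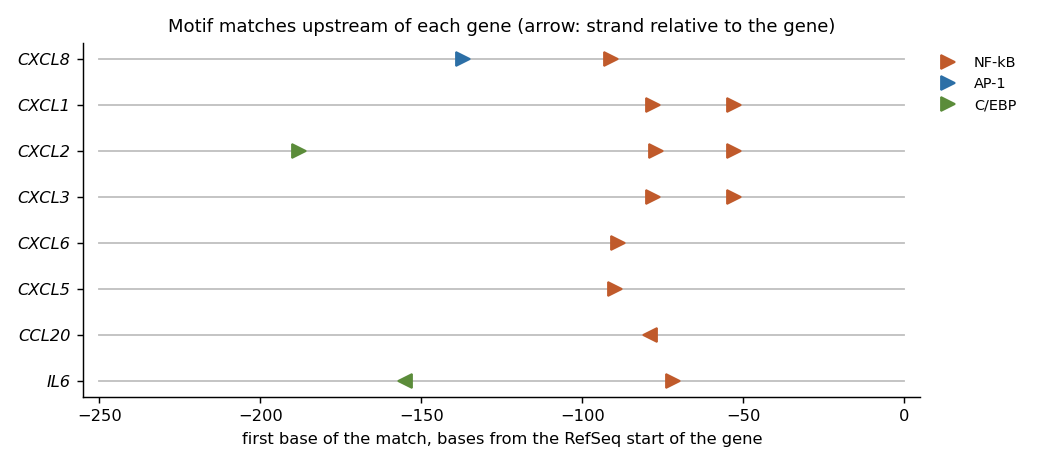
Positions of motif matches upstream of the 8 genes. The x axis gives the first base of each match in bases from the RefSeq start, and arrows give its strand relative to the gene. NF-κB type matches lay between 91 and 53 bases before the start in every gene. A match is a run of letters and no measurement of binding.

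Total estimated counts per sample were 12670755 to 16056734 in the controls, 11174407 to 14865450 at the low dose and 10517448 to 11854183 at the high dose, so every control was deeper than every high-dose sample. The floor of 3 counts in a sample was worth 0.187 to 0.285 CPM (counts scaled for depth alone), which covers counting error only. The interferon-response genes MX1, IFIT1, OAS1, ISG15 and IRF9 were each called higher at either dose in either set, as the dose labels say. Squamous markers summed to 2751 to 3371 TPM (a level scaled for transcript length and depth) in the A-C set and 1204 to 1509 TPM in the D-F set, where KRT14 was between 0 and 0.25 TPM. Of 11 leukocyte markers, 6 were at 0 in every sample of each set, and PTPRC, the pan-leukocyte antigen, was at or below 0.04 TPM. Leukocyte markers summed to 10.02 to 20.2 TPM in the A-C set and 5.38 to 40.6 TPM in the D-F set. CD68, a lysosomal protein also made outside macrophages, held most of this sum and rose with dose in the D-F set (log2 fold change 2.71, SE 0.198, adjusted p = 3.15e-05 by edgeR at the high dose). The 7 fibroblast markers summed to 7.36 to 16.0 TPM in the A-C set and 43.1 to 51.2 TPM in the D-F set. FAP held most of the sum in the D-F set only, and was higher in untreated D than in A (log2 fold change 5.77). The 5 endothelial markers summed to 15.3 to 21.7 TPM in the A-C set, mostly CDH5, and to 0.1003 to 0.796 TPM in the D-F set. The part of these differences in the results below was not tested.

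CXCL1 had the highest TPM of the 8 genes in all 12 samples, CXCL8 the next highest and CXCL2 the third. Untreated CXCL8 stood at 171 and 192 TPM in A1 and A2 and at 26.2 and 23.1 TPM in D1 and D2. Untreated CXCL1 stood at 378 and 344 TPM in the A samples and at 97.6 and 84.0 TPM in the D samples. Untreated IL6 stood at 9.24 TPM in both A samples and at 1.56 and 0.96 TPM in the D samples. Scaled for depth alone, it stood at 5.92 and 4.73 CPM in the A samples and at 1.03 and 0.94 CPM in the D samples. For each of these genes both A samples lay far above both D samples, with ratios of mean TPM of 7.37 for CXCL8, 7.33 for IL6 and 3.98 for CXCL1. In bulk RNA, fewer cells making a transcript and less RNA per cell cannot be told apart.

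CXCL2 stood at 20.3 and 15.6 TPM in the A samples and at 7.74 and 5.93 TPM in the D samples, and the groups did not overlap. CXCL3 was the closest between the sets, at 4.44 and 4.35 TPM in the A samples and 3.20 and 1.41 TPM in the D samples. CCL20 stood at 13.6 and 9.27 TPM in A1 and A2, from 87 and 77 counts, and at 0.465 and 0 TPM in D1 and D2, from 3 and 0 counts. CXCL5 and CXCL6 had the opposite order. CXCL6 had 0 counts in all 6 A-C samples and 6 to 14 counts in the D-F samples. CXCL5 had 2 counts in A1, 0 in the other A-C samples and 0 to 16 counts in the D-F samples.

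**Figure D2:**
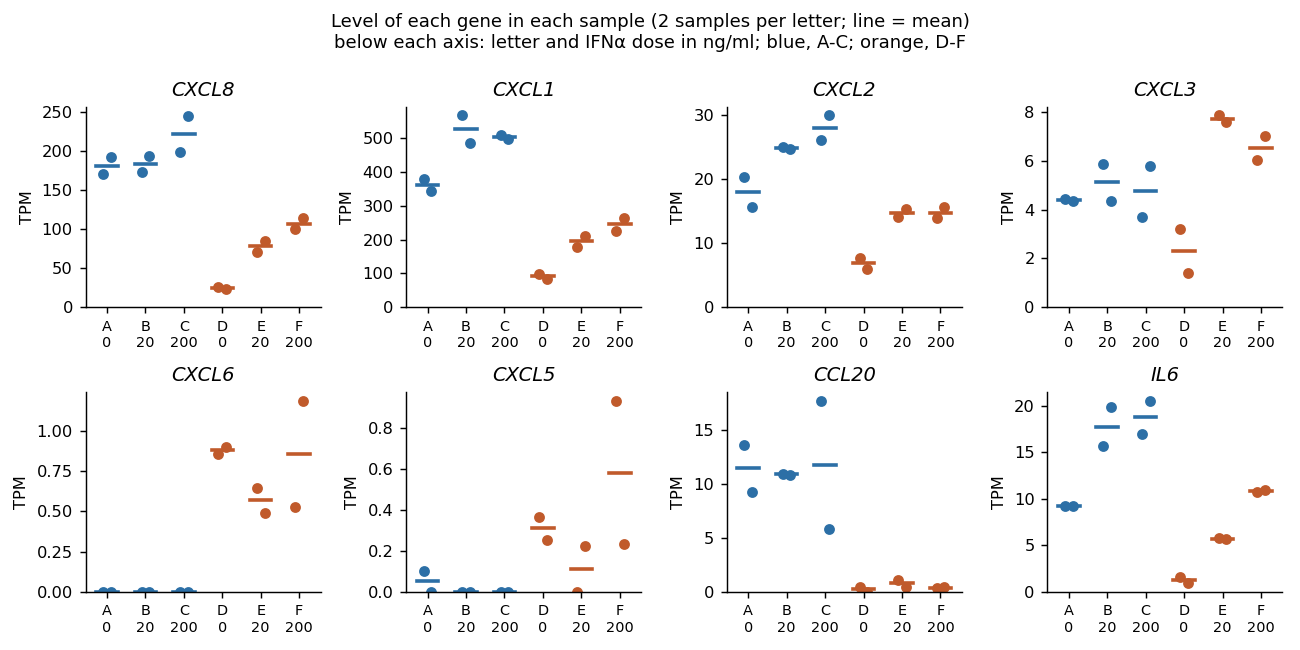
TPM of each gene (y axis, linear, each panel with its own scale) in every sample, by letter and IFNα dose in ng/ml (x axis). Points are the 2 samples of a letter, lines their mean, blue is the A-C set and orange the D-F set. CXCL8 rises from 23.1 to 26.2 TPM in D to 99.8 to 114 TPM in F and stays below the A samples.

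Each comparison used edgeR's quasi-likelihood test on the counts, in 1 fit of all 12 samples and 6 letters, with p-values adjusted by Benjamini-Hochberg over the 19944 genes that passed a filter on low counts. A gene was called when it changed at least 2-fold with an adjusted p of at most 0.05. CXCL5 did not pass the filter, so 7 of 8 genes were tested. CXCL6 passed only through its D-F counts and CCL20 only through its A-C counts, and no test between the sets is given for either. Of the other 5 genes, 4 were called lower in untreated D than in A and 0 higher, against 11.0% and 15.7% of all genes tested. Those shares also count genes that passed the filter through 1 set only. CXCL8 was lower by the widest margin among the well-counted genes (log2 fold change -3.08, SE 0.148, adjusted p = 4.59e-07). The log2 fold change was -2.51 for IL6 (SE 0.250, adjusted p = 3.57e-05), -2.12 for CXCL1 (SE 0.131, adjusted p = 1.77e-06) and -1.72 for CXCL2 (SE 0.288, adjusted p = 9.08e-04). CXCL3 did not reach 2-fold (log2 fold change -0.97, SE 0.351, adjusted p = 0.0461). Leaving out 1 sample moved its value between -1.54 (without D1) and -0.56. As mean CPM with no test, CCL20 was at least 28.6-fold higher in A than in D, taking the D samples at the floor. CXCL6 was at least 3.54-fold and CXCL5 at least 2.25-fold higher in D than in A, taking the A samples at the floor. These bounds take the higher counts as exact, and in D1 and D2 those were only 13 and 9 for CXCL6 and 8 and 6 for CXCL5.

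In the D-F set the high dose was followed by higher CXCL8, CXCL1 and IL6, and CXCL2 lay at the threshold. CXCL8 went from 26.2 and 23.1 TPM in D1 and D2 to 99.8 and 114 TPM in F1 and F2. IL6 went from 1.56 and 0.96 TPM to 10.8 and 10.9 TPM, from 15 and 14 counts to 64 and 72 counts. CXCL1 went from 97.6 and 84.0 TPM to 227 and 263 TPM. For all of these genes both F samples lay above both D samples by more than the gap between replicates. IL6 changed most (log2 fold change 2.54, SE 0.251, adjusted p = 2.91e-04), then CXCL8 (2.08, SE 0.144, adjusted p = 2.12e-05) and CXCL1 (1.33, SE 0.129, adjusted p = 2.54e-04). CXCL8, CXCL1 and IL6 were called in each of the 12 fits that left out 1 sample.

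CXCL2 went from 7.74 and 5.93 TPM in the D samples to 13.9 and 15.6 TPM in the F samples (log2 fold change 1.22, SE 0.290, adjusted p = 0.0394). That call rests on the complete fit: it held without D1 (1.81, adjusted p = 0.00667) and was lost in the other 11 fits that left out 1 sample, where adjusted p was between 0.0532 and 0.194. It was also lost with the replicate number as a block (adjusted p = 0.0882). CXCL3 went from 3.20 and 1.41 TPM to 6.04 and 7.02 TPM and was not called (log2 fold change 1.33, SE 0.350, adjusted p = 0.0590). D1 and D2 lay apart for both genes, with 78 and 39 counts for CXCL2 and 29 and 15 for CXCL3. When 1 sample was left out, CXCL3 lay between 0.92 and 1.89, highest without D1. In all, 4 of the 8 genes were called higher at the high dose in the D-F set, against 1.67% of all genes tested.

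The low dose gave the same order of IL6, CXCL8 and CXCL1 in the D-F set. CXCL8 stood at 71.2 and 84.9 TPM in E1 and E2, IL6 at 5.78 and 5.65 TPM and CXCL1 at 178 and 211 TPM. All of these values lay above both D samples and below both F samples. The log2 fold change over D was 1.91 for IL6 (SE 0.255, adjusted p = 0.00269), 1.67 for CXCL8 (SE 0.143, adjusted p = 1.40e-04) and 1.02 for CXCL1 (SE 0.129, adjusted p = 0.00187). CXCL1 lost its call without D2 (0.93) or E2 (0.86), where it fell under 2-fold. IL6 lost its call with only the D and E samples in the fit (adjusted p = 0.0543). CXCL2 stood at 14.1 and 15.4 TPM and did not pass (log2 fold change 1.23, adjusted p = 0.0545). CXCL3 stood at 7.87 and 7.58 TPM and did not pass (1.32, adjusted p = 0.0871). Leaving out 1 sample moved CXCL2 between 0.80 and 1.83 (without D1) and CXCL3 between 0.91 and 1.88. Thus 3 of the 8 genes were called higher, against 1.20% of all genes tested.

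In the A-C set, where the untreated levels were already higher, IL6 alone was called. It stood at 9.24 TPM in both A samples, 15.6 and 19.9 TPM in the B samples and 16.96 and 20.5 TPM in the C samples, with no overlap between untreated and treated samples. The high-dose log2 fold change was 1.08 (SE 0.216, adjusted p = 0.0199). That call was lost without A2 (0.93, adjusted p = 0.138), without C2 (0.87, adjusted p = 0.113), with the replicate block (1.07, adjusted p = 0.0520) and with only the A and C samples in the fit (1.09, adjusted p = 0.127). At the low dose IL6 did not pass (0.82, SE 0.215, adjusted p = 0.135).

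CXCL1 stood at 568 and 487 TPM in the B samples and 511 and 498 TPM in the C samples, all above the A samples. Its high-dose change passed the p threshold but not the 2-fold threshold (log2 fold change 0.50, SE 0.125, adjusted p = 0.0438). The low-dose change was 0.55 (SE 0.125, adjusted p = 0.0858). CXCL8 stood at 173 and 193 TPM in the B samples, overlapping the A samples, and at 199 and 245 TPM in the C samples (log2 fold change 0.32, SE 0.135, adjusted p = 0.198). CXCL2 stood at 25.1 and 24.8 TPM in the B samples and 26.1 and 30.0 TPM in the C samples (0.65, SE 0.270, adjusted p = 0.194). CXCL3 stood between 3.71 and 5.88 TPM in the treated A-C samples, on both sides of the A samples (0.17, SE 0.341). In the A-C set, 1 of the 8 genes was called higher at the high dose, against 1.41% of all genes tested (281 genes, and 186 without A2). At the low dose 0 were called by edgeR, against 0.632%, while CXCL1 and IL6 had an unadjusted p of 0.00146 and 0.00369 and DESeq2 also called 0.

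**Figure D3:**
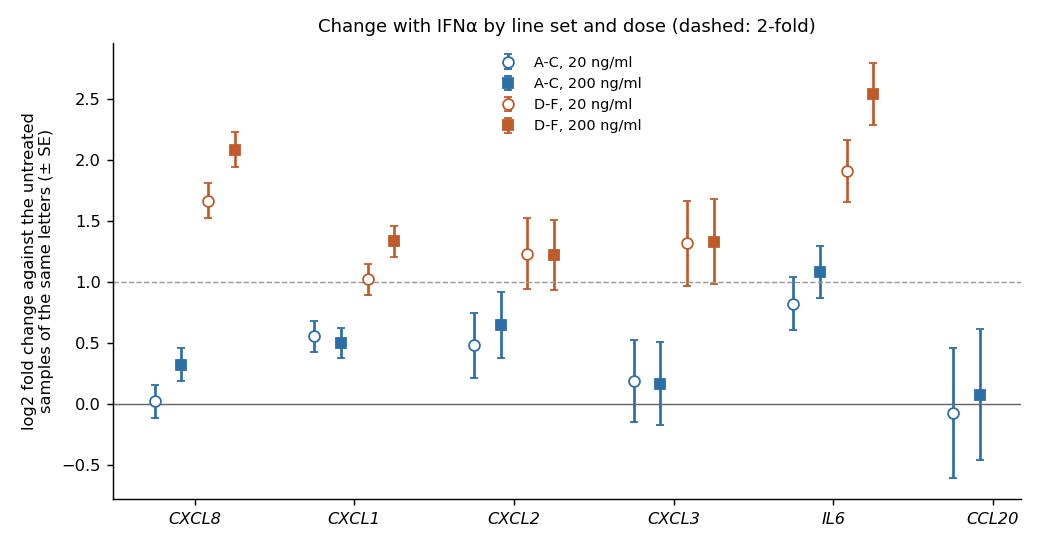
Log2 fold change against the untreated letter of the same set (y axis), with SE from edgeR as bars, for CXCL8, CXCL1, CXCL2, CXCL3, IL6 and CCL20 (x axis). Open circles are 20 ng/ml and filled squares 200 ng/ml, and CCL20 is drawn for the A-C set only because of its low D-F counts. CXCL8 reaches 2.08 in the D-F set and 0.32 in the A-C set at the high dose.

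The difference between the sets was tested as an interaction term. It was called for CXCL8 at the high dose (log2 difference 1.76, SE 0.196, adjusted p = 0.00439) and at the low dose (1.65, SE 0.196, adjusted p = 0.00927). The low-dose call was lost without B1 (1.59, adjusted p = 0.0535). At the high dose the difference was 1.46 for IL6 (SE 0.329, adjusted p = 0.0606), 0.83 for CXCL1 (SE 0.179, adjusted p = 0.0515), 1.16 for CXCL3 (SE 0.488, adjusted p = 0.252) and 0.57 for CXCL2 (SE 0.394, adjusted p = 0.491), and none of these was called. So 1 of the 8 genes was called at each dose, against 0.622% of all genes tested at the high dose and 0.165% at the low dose. Without C1 the high-dose background was 251 genes in place of 124, and without F2 it was 47. The interferon-response check genes MX1 (1.28) and ISG15 (2.81) also changed more in the D-F set at the high dose, and their part in the CXCL8 difference was not tested. Like CXCL8, both started lower there. In untreated D against A, edgeR gave -1.43 for MX1 (adjusted p = 1.01e-06) and -2.14 for ISG15 (adjusted p = 4.87e-05). The part of the lower start in these differences was not tested. After the high dose CXCL8 and CXCL1 in the F samples were still below the untreated A samples. The values were 99.8 and 114 against 171 and 192 TPM for CXCL8, and 227 and 263 against 378 and 344 TPM for CXCL1. For IL6 the F samples were above the A samples in TPM (10.8 and 10.9 against 9.24). Scaled for depth alone, the IL6 values overlapped (5.55 and 6.08 against 5.92 and 4.73 CPM). These last comparisons were not tested.

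Averaged over the sets, the high dose was followed by a call for 2 of the 8 genes, against 1.58% of all genes tested. They were IL6 (log2 fold change 1.81, SE 0.166, adjusted p = 1.42e-04) and CXCL8 (1.20, SE 0.0984, adjusted p = 6.57e-05). Over the 12 fits that left out 1 sample, CXCL2 lay between 0.72 and 1.23 and CXCL3 between 0.54 and 1.03, each highest without D1. CXCL1 (0.92, adjusted p = 2.15e-04) and CXCL2 (0.94, adjusted p = 0.0173) passed the p threshold without reaching 2-fold. At the low dose IL6 was called (1.37, SE 0.167, adjusted p = 0.00145), 1 gene of 8 against 0.963% of all genes tested. There CXCL2 lay between 0.64 and 1.17 when 1 sample was left out, highest without D1. The high and low comparisons share their control samples, and the D samples enter both the untreated comparison and the D-F changes. High against low dose gave 0 calls among the 8 genes with edgeR and with DESeq2, where edgeR called 0.0150% of all genes tested higher and 0.0301% lower. Of the 8 genes, CXCL8 (0.36, unadjusted p = 0.00431, adjusted p = 0.301) and IL6 (0.44, unadjusted p = 0.0171, adjusted p = 0.416) had an unadjusted p under 0.05.

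No change with dose could be read for CCL20, CXCL5 and CXCL6. CCL20, the CCR6 ligand, stood at 10.9 TPM in both B samples and at 17.7 and 5.84 TPM in C1 and C2, from 104 and 31 counts, so the C samples alone spanned the A and B samples (high-dose log2 fold change 0.08, SE 0.536). In the D-F set CCL20 had 0 to 6 counts in a sample. CXCL6 had 13 and 9 counts in the D samples, 8 and 6 in the E samples and 6 and 14 in the F samples (high-dose log2 fold change 0.18, SE 0.704, adjusted p = 0.954). CXCL5 had 8 and 6, 0 and 4, and 16 and 4 counts in the same samples. These counts could not show a moderate change at this depth.

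The rest of the pathway was read from 67 genes in 9 lists, of which 53 were tested. PPBP, PF4 and PF4V1, the platelet members of the chromosome 4 chemokine group, were at 0 TPM in all samples, so 0 of 3 were tested. Of the 6 receptors 3 were tested. CXCR1 and ACKR1 were at 0 TPM in all samples, and CXCR2 was between 0.52 and 2.54 TPM in the A-C set and at most 0.14 TPM in the D-F set. None of the tested receptors was called after IFNα in either set. IL6R stood at 25.7 and 25.2 TPM in the A samples and at 4.40 and 1.90 TPM in the D samples, lower in D (log2 fold change -4.13, SE 0.331, adjusted p = 9.19e-06). IL6ST was also lower in D (-1.31, SE 0.0779, adjusted p = 1.43e-06).

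Among the 13 inducing cytokines and their receptors, 10 were tested and 5 were lower in untreated D than in A. They were IL1A, IL1B, TNF, IL1R1 and IL1RN, and IL17RC was higher (1.00, adjusted p = 0.0119; under 2-fold without A1, D2 or F2, down to 0.90). IL1B, which encodes IL-1β, stood at 513 and 480 TPM in the A samples and at 77.0 and 63.8 TPM in the D samples (log2 fold change -3.02, SE 0.0891, adjusted p = 6.06e-08). IL1A stood at 219 and 211 TPM in the A samples and 41.0 and 37.8 TPM in the D samples. After the high dose in the D-F set 2 of the 10 were called higher. IL1A rose to 85.1 and 86.1 TPM (1.04, SE 0.0743, adjusted p = 2.73e-05), and fell just under 2-fold without D2 (1.00). IL1RN, the IL-1 receptor antagonist, rose from 0.24 and 0.23 TPM to 2.45 and 1.74 TPM (2.93, SE 0.637, adjusted p = 0.0268), but lost its call without D1, D2, F1 or F2 (adjusted p between 0.0774 and 0.157). IL1B passed the p threshold without reaching 2-fold (0.90, adjusted p = 2.11e-04). The median log2 fold change of the 10 was 0.79 in the D-F set and 0.03 in the A-C set, beside 0 and -0.0027 over all genes.

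None of the 5 NF-κB subunits was called after IFNα, and NFKB2 in the D-F set passed the p threshold only (0.51, adjusted p = 0.00981). Of the 10 inhibitors and feedback genes, TNFAIP3, which encodes the NF-κB inhibitor A20, was the only one called higher. It stood at 18.0 and 13.3 TPM in the D samples, 41.7 and 42.0 TPM in the E samples and 46.7 and 57.6 TPM in the F samples, and at 115 and 121 TPM in the A samples and 130 and 153 TPM in the C samples. In the D-F set it rose at the high dose (1.72, SE 0.115, adjusted p = 1.71e-05) and the low dose (1.496, SE 0.115, adjusted p = 5.70e-05). In the A-C set the high-dose value was 0.23 (SE 0.109, adjusted p = 0.263), and the sets differed (1.495, SE 0.157, adjusted p = 0.00394). BIRC3 passed the p threshold in both sets without reaching 2-fold (0.84 and 0.87). NFKBIA, a rapid NF-κB target, had 0.11 in the D-F set and -0.19 in the A-C set, neither past the threshold. The median of the 10 was 0.49 in the D-F set and 0.01 in the A-C set.

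Among the 8 AP-1 and C/EBP factors, JUN was higher at the high dose in the D-F set (1.10, SE 0.127, adjusted p = 8.19e-04), and CEBPB was lower in the A-C set (-1.14, SE 0.166, adjusted p = 0.00529; -0.95 without A2, and adjusted p = 0.0710 with only the A and C samples in the fit). CEBPB stood at 19.8 and 24.4 TPM in the A samples, 9.81 and 10.1 TPM in the C samples, 30.0 and 34.5 TPM in the D samples and 43.9 and 55.2 TPM in the F samples. Of the 11 other growth factors and IL-6 family cytokines 8 were tested. LIF, an IL-6 family cytokine, was called higher in the D-F set (1.08, SE 0.105, adjusted p = 2.71e-04; 0.97 without F2). CSF2, the gene of GM-CSF, had a larger value that did not pass (1.74, SE 0.451, adjusted p = 0.0563). Averaged over the sets, CNTF was lower at the low dose (-1.85, SE 0.376, adjusted p = 0.0251), which was lost without A1, D1, D2, E1 or E2 (adjusted p between 0.0603 and 0.101). None of the 6 mRNA decay factors and none of the 3 tested IL-6 signal targets was called after IFNα in either set. SOCS3, a STAT3 target, was lower in untreated D than in A (-2.39, SE 0.156, adjusted p = 2.48e-06), while PIM1 was higher (1.05, adjusted p = 5.12e-04).

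Over the 53 tested genes of these lists, 5 were called higher at the high dose and 2 at the low dose in the D-F set, against 1.67% and 1.20% of all genes. In the A-C set 1 was called lower at the high dose and 0 at the low dose, against 0.767% and 0.0802%. In the untreated comparison CXCR2, TNFRSF1B and CSF3 were left out, as they passed the filter through 1 set only. Of the rest, 19 were called lower, 3 higher and 28 not, against 11.0% lower and 15.7% higher of all genes. In those shares, genes that passed through 1 set only were not left out. The lower call of BCL3 was lost without A2 (-0.92) or D2 (-0.97). The lists were chosen with earlier results of these data known.

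**Figure D4:**
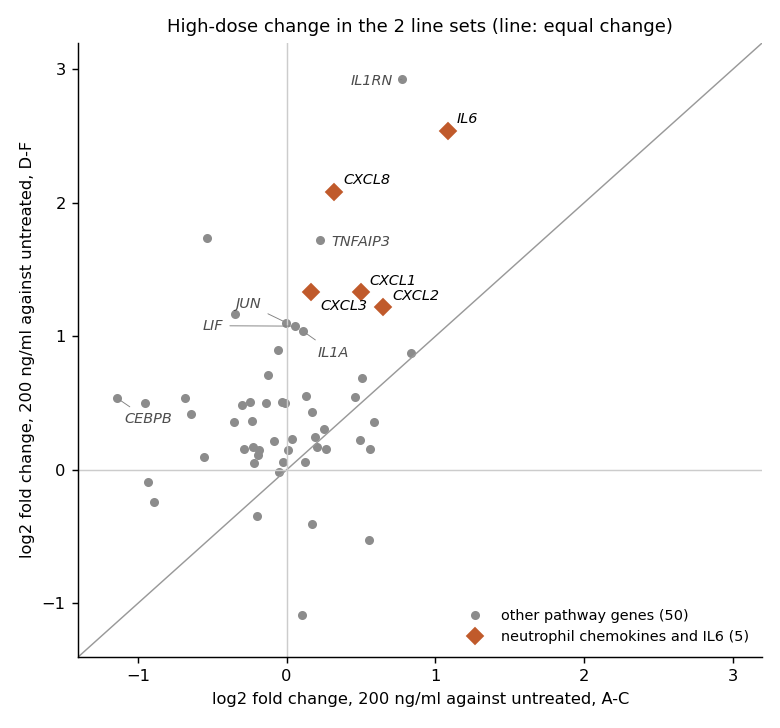
High-dose log2 fold change in the A-C set (x axis) and the D-F set (y axis) for 5 of the neutrophil chemokine and IL6 genes (diamonds) and 50 pathway genes with an SE under 1 in both sets (circles). The diagonal marks equal change. All 5 diamonds lie above it, as do TNFAIP3 (1.72 against 0.23) and IL1RN (2.93 against 0.78). This position is not particular to them. The median high-dose difference between the sets was 0.95 for the AP-1 and C/EBP factors and 0.69 for the inducing cytokines and their receptors. For the chemokine and IL6 receptors it was -1.19, the only list below 0.

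The genes whose pattern over the 12 samples was most like that of CXCL8 were sought among 13033 other genes averaging 50 counts or more, by Pearson's r of log2 CPM after subtracting the mean of each line set. The 5 highest were TNFAIP3 (r = 0.990), KRT6B (r = 0.978), an assembled locus without a symbol (r = 0.977), RARRES3 (r = 0.976) and C1orf132 (r = 0.975). The assembled locus had 0 counts in all 6 A-C samples and 469 to 1487 counts in the D-F samples, so its likeness rests on the D-F set. The other genes also moved more in the D-F set at the high dose. TNFAIP3 changed by 1.72 there and 0.23 in the A-C set, RARRES3 by 2.31 and 0.26, and C1orf132 by 0.74 and 0.10. KRT6B, a keratin of activated and stressed squamous cells, changed by 2.53 in the D-F set (SE 0.146, adjusted p = 5.75e-06) and 0.35 in the A-C set (SE 0.140, adjusted p = 0.177). For IL6 the 3 highest were AIM2 (r = 0.986), a sensor of cytosolic DNA, RTP4 (r = 0.983) and PARP12 (r = 0.983). Each was called higher at the high dose in both sets. In the A-C and D-F sets AIM2 changed by 1.21 and 2.48, RTP4 by 2.77 and 5.27 and PARP12 by 1.04 and 2.37. For CCL20 the 3 highest were PTPRH (r = 0.913), TMCO4 (r = 0.886) and U2AF1 (r = 0.881), and none of these was called in any comparison. CCL20 itself had 0 to 6 counts in each D-F sample and 104 and 31 in C1 and C2. No change with dose can be read from this likeness. Among the 8 genes, CXCL1 and IL6 had r = 0.962, CXCL8 and IL6 had r = 0.936, CXCL1 and CXCL2 had r = 0.911, and CXCL8 and CCL20 had r = 0.381. All points share libraries and doses, so these are descriptions over 12 samples.

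The transcript table divided the reads of the 8 genes over 29 transcripts, and the gene counts equalled their sums for 8 of 8 genes. In CXCL8 the full protein-coding transcript CXCL8-201 held 86.8% to 98.3% of TPM over the samples, and in CXCL1 the protein-coding CXCL1-201 held 91.8% to 97.8%. In IL6 the retained-intron transcript IL6-209 held 27.0% to 53.8% in the A-C set. It stood at 2.71 and 3.76 TPM in the A samples and 8.04 and 9.23 TPM in the C samples. In the D-F set IL6-209 held 0% to 59.1%, with 0.26 and 0 TPM in the D samples and 5.52 and 3.85 TPM in the F samples. The protein-coding IL6-201 stood at 0.53 and 0 TPM in the D samples and 1.36 and 1.75 TPM in the F samples. The rise of IL6 in the D-F set was therefore not one of protein-coding transcripts alone. CXCL2-202, the protein-coding form, held 79.0% to 88.8% of CXCL2 in the A-C set but 19.6% in D2, the sample with 39 counts. CXCL3 was divided over 4 transcripts, with CXCL3-201, its protein-coding form, at 21.6% to 51.5% in the A-C set. These shares are estimates and were not tested.

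CXCL1, CXCL2 and CXCL3 are close copies, so their reads can be exchanged. Of the words of 31 bases in the GENCODE 29 transcripts of each gene, 14.4% of those of CXCL1, 22.4% of those of CXCL2 and 9.54% of those of CXCL3 also occur in another of them or in the pseudogene CXCL1P1. CXCL1 had 11.7 to 21.5 times as many counts as CXCL2 in the same sample, so the values of CXCL2 and CXCL3 are uncertain to the extent that reads of CXCL1 were counted there. CXCL5 and CXCL6 shared 1.87% and 2.18% of their words, and CXCL8, CCL20 and IL6 shared 0 with the other genes compared.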

How the data were processed

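Total RNA of the 12 samples was depleted of rRNA, and strand-specific libraries were sequenced on the HiseqXTen platform. The submitters' processing notes name Trimmomatic 0.36, HISAT2 2.1.0, StringTie 1.3.3b and the build GRCh38.p10, without roles or order. The counting program and annotation release are not given in the sources used here. The authors deposited estimated counts of genes and transcripts, unscaled; these were already whole, so no rounding was needed. The deposited TPM and FPKM values had been scaled by the authors for length and depth. Totals were 10517448 to 16056734 counts per sample, and 2 replicates per letter limit the precision.

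Levels are deposited TPM. The estimated counts were tested with edgeR 4.0.16 under R 4.3.3 (TMM, filterByExpr, quasi-likelihood F test, Benjamini-Hochberg), a procedure first tested on simulated data. The SE is the absolute log2 fold change over the square root of F. Where a letter held no more than 3 counts per sample, the fold of mean CPM was taken against 3 counts per sample. It is a lower bound for the floor only, with no allowance for error in the higher counts. DESeq2 1.42.0 and limma 3.58.1 on log2(TPM + 0.1) and log2(TPM + 1) were alternatives, as were RLE size factors, no filter, a replicate block, fewer samples in the fit, unadjusted p and leaving out each sample. FPKM served only to check the untreated levels.

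Named genes were the 8 genes, those of the fixed pathway and marker lists that were called with at most 4 others per list, and the genes of most similar pattern. The genes and lists were chosen with earlier results of these data known. Promoter sequences came from RefSeq on GRCh38.p14 and transcript sequences from GENCODE 29. Tables and figures were made with Python 3.11.15, pandas 2.3.3, numpy 2.4.6 and matplotlib 3.10.9.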

Additional observations from a re-analysis of the deposited data

Results flagged for a closer look

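The effect of IFNα differed between the line sets, by edgeR's interaction term with at least a 2-fold difference and an adjusted p of at most 0.05, for 1 of the 8 genes and for several listed pathway and check genes. All of the differences below are log2 values of D-F minus A-C.

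At the high dose CXCL8 differed by 1.76 (SE 0.196, adjusted p = 0.00439), TNFAIP3 by 1.495 (SE 0.157, adjusted p = 0.00394) and CEBPB by 1.68 (SE 0.228, adjusted p = 0.0104), and each of these was called in all 12 fits that left out 1 sample. JUN differed by 1.10 (SE 0.175, adjusted p = 0.0198) and LIF by 1.02 (SE 0.147, adjusted p = 0.0131), and both were called in 6 of those 12 fits. JUN lost its call without A2, C2, D1, D2, F1 or F2 (adjusted p up to 0.0890), and LIF without A2, C2, D1, D2, E1 or F2 (difference down to 0.91). Among the interferon-response check genes, MX1 differed by 1.28, IFIT1 by 1.12 and ISG15 by 2.81. Each of these was lower in untreated D than in A (log2 fold change -1.43, -0.87 and -2.14). IFIT1 lost its call without A1, D1, D2, F1 or F2 (0.88 without A1).

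At the low dose CXCL8 differed by 1.65 (SE 0.196, adjusted p = 0.00927; 1.59 and adjusted p = 0.0535 without B1) and TNFAIP3 by 1.43 (SE 0.157, adjusted p = 0.00589; 0.0882 and 0.0809 in the limma fits on log2(TPM + 0.1) and log2(TPM + 1), where its call was lost). MX1 differed by 1.45, IFIT1 by 1.33, OAS1 by 1.10 and ISG15 by 2.13. OAS1 lost its call in the same limma fits (adjusted p = 0.0747 and 0.0671). IFIT1 was called in 6 of 12 fits that left out 1 sample, losing its call without B1, B2, D1, D2, E1 or E2 (adjusted p up to 0.0794). ISG15 was called in 7 of 12, losing its call without A2, B1, B2, E1 or E2 (adjusted p up to 0.0966).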

How the results depend on the processing

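Over the alternatives, 769 of 810 values kept their direction and side of the threshold, 18 gained a call, 23 lost one and 0 reversed. They cover chosen comparisons of CXCL1, CXCL2, CXCL3, CXCL8 and IL6, CCL20 in the untreated comparison only, and neither CXCL5 nor CXCL6. Some are untreated levels in FPKM and CPM, which have no call. Some small changes, such as CXCL8 at the low dose in the A-C set (0.02), were left out, which limits the count of reversals. The listed genes were refitted only where already called, which leaves no call to gain: 809 of 899 values kept it, 90 lost it and 0 reversed.

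In the A-C set at the high dose, the 1 gene called became 0 with the replicate block, with only the groups compared and with limma on log2(TPM + 0.1) or log2(TPM + 1), and 0 to 1 when 1 sample was left out. At the low dose in the D-F set, 3 became 5 with limma on log2(TPM + 1) and with unadjusted p. The high-dose difference between the sets went from 1 to 2 genes with either limma fit and 3 with unadjusted p. The low-dose difference went from 1 to 3 with unadjusted p and 0 to 1 when 1 sample was left out. Averaged over the sets, leaving out 1 sample gave 2 to 4 genes at the high dose and 1 to 2 at the low dose.

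Same-numbered replicates did not deviate together (correlations of -0.0306 to 0.0479 over 6 pairs within the sets), so the numbers are not taken as pairs. Among the genes described, the replicate block also ended the high-dose call of CXCL2 in the D-F set (adjusted p = 0.0882) and that of IL1RN (0.0579), the line-set differences of JUN (0.0641), LIF (0.0576), IFIT1 (0.0620 and 0.0722 at the low dose) and ISG15 (0.0871 at the low dose), the low-dose call of CNTF (0.0516) and the untreated calls of BCL3 (-0.98) and PIM1 (0.99).

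Background counts of genes called higher depended on the setting for the high-dose difference between the sets (124, but 40 with the block, 53 with only the groups compared, 189 with DESeq2, and 47 without F2 to 251 without C1), its low-dose counterpart (33, 93 with DESeq2 and 21 without E2) and the high dose in the A-C set (281, and 158 with only the groups compared and 186 without A2). With unadjusted p they were 529, 412, 605, 634, 424, 536, 698 and 430 for the high and low dose averaged, the high dose in A-C and D-F, the low dose in A-C and D-F and the high- and low-dose differences. The limma fits on log2(TPM + 0.1) moved the median of all genes to 0.135 in the untreated comparison and 0.118 in the high-dose difference. The causes of these changes were not tested. Depth limits CCL20 in the D-F set, CXCL5 and CXCL6.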
